A study of Mus musculus with 17 samples.

Results

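The 10 genes described here move ions and water across the colonic epithelium. They were chosen by name from what the genes are known to do, but with earlier results of these data already known. All 10 have a probe on the colon arrays and passed the filter on dim probes, out of 25029 gene or transcript names with a tested probe. Where a gene has several probes, the one with the highest mean log2 value in the authors' table was used. Slc26a3, Slc9a3, Car1 and Car4 serve electroneutral salt absorption, Aqp8 conducts water, Scnn1b and Scnn1g are sodium channel subunits, Atp12a is a proton pump, and Cftr and Slc12a2 serve chloride secretion.

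Colonocytes take up sodium chloride through an apical sodium-proton exchanger working beside a chloride-bicarbonate exchanger, and carbonic anhydrases supply the protons and bicarbonate that the exchangers trade. In the distal colon the epithelial sodium channel ENaC, controlled by aldosterone, absorbs the remaining sodium, and the colonic H+/K+-ATPase recovers potassium. Crypt cells secrete chloride that enters through the basolateral Na-K-Cl cotransporter and leaves through Cftr, and water follows the salt. The proximal and distal colon are known to use these routes to different degrees.

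RNA came from the colon of male mice of the C57BL/6J background, and which stretch of the colon was taken is not given in the sources used here. WT mice were bought at 6 weeks of age and rested for 2 weeks, while Pxr-/- mice, which lack the nuclear receptor PXR in the whole animal, came from a colony kept in the same facility for 10 years, so that genotype and origin of the mice cannot be told apart; the age of the Pxr-/- mice is not given. For 4 days mice received intraperitoneal corn oil alone (CONT) or corn oil with 100 mg/kg of pregnenolone carbonitrile (PCN), a ligand of rodent PXR, and they were killed fed at ZT6, 6 h after the last injection. The arrays numbered 4 for WT CONT, 4 for WT PCN, 5 for Pxr-/- CONT and 4 for Pxr-/- PCN, 17 in all, each labelled as a separate replicate, in 2 wash baths and on 8 slides. In whole tissue, fewer cells of a type and less RNA per cell cannot be told apart.

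Several arrays stood apart or went against their labels. WT PCN replicate 4 and Pxr-/- PCN replicate 2 differed over all tested probes by an SD of only 0.172 (log2), and WT PCN replicate 3 and Pxr-/- CONT replicate 2 by 0.198, while other pairs of arrays differed by 0.297 to 0.616. Both WT-labelled arrays of these pairs had the targeted gene Nr1i2 at 11.10 and 11.15, below the 11.85 to 12.44 of the 6 other WT arrays and within the 10.39 to 11.93 of the 7 other Pxr-/- arrays; whether the probe lies in the deleted part is not given. The group comparisons are therefore given with all 17 arrays and with the 13 left after dropping these 4, and relations across arrays over 15 profiles, in which each near-identical pair counts once. Pxr-/- PCN replicate 4 stood apart in regional genes. Hoxb13, a homeobox gene of the distal colon, was at 7.53 there and at 12.88 to 16.09 elsewhere. The mean of Fabp6 and Slc10a2, genes of the ileum, was 12.48 on that array against at most 10.02 on the others. Only these 2 of the 6 small intestine genes listed were tested. Markers of the labelled tissue were high on all arrays, with list means of 15.14 to 15.55 for 10 epithelial genes and 15.35 to 16.16 for 7 colonocyte genes. Markers of other organs were high on some arrays. The mean of 3 pancreatic enzyme genes was 18.03 on WT CONT replicate 4, 15.98 and 15.94 on the near-identical WT PCN replicate 3 and Pxr-/- CONT replicate 2, 11.33 on WT PCN replicate 1 and 5.98 to 6.26 on the 13 others. The mean of 6 liver genes was 11.81 on WT CONT replicate 5, 9.77 and 9.34 on WT PCN replicates 1 and 2, and at most 7.90 on the others.

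The probe sequences of Atp12a, Scnn1g, Car4 and Car1, read from the array files, show what was hybridized. These are not the 4 most variable members. The log2 range of Aqp8 over the 17 arrays (3.53) was wider than those of Car1 (3.42) and Car4 (2.02). Positions are those of the array annotation (build mm9), and gene spans are RefSeq's (GRCm38.p6). The Atp12a probe (transcript NM_138652) is annotated to chromosome 14 from 57005794 to 57006021 on the plus strand, a span of 228 bases for 60 bases of probe, so that it joins sequence from both sides of an intron. The Scnn1g probe (NM_011326) lies on chromosome 7 from 128911434 to 128911493, plus strand, the Car4 probe (NM_007607) on chromosome 11 from 84777667 to 84777726, plus strand, and the Car1 probe (NM_009799) on chromosome 3 from 14767486 to 14767545, minus strand. The genes span 56364669 to 56388551 (Atp12a), 121734420 to 121768482 (Scnn1g), 84957754 to 84966054 (Car4) and 14766214 to 14808365 (Car1) of the same chromosomes in GRCm38.p6. Each sequence below reads 5′ to 3′ as the array annotation gives it and has at least 1 reading frame without a stop codon.
Atp12a: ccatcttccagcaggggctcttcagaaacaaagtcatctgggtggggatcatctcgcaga
Scnn1g: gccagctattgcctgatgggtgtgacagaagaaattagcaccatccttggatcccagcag
Car4: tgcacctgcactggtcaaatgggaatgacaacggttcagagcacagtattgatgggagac
Car1: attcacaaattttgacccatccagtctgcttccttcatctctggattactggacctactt

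All values below are log2 signals after quantile normalization, and each gene is compared only with itself across arrays. Neither PCN nor genotype moved any of the 10 genes past the test, whereas single mice of the same group differed widely. Each member's SD within groups was above the median of all tested probes (0.17), with a median of 0.61 over the members, and those of Atp12a (2.32) and Scnn1g (1.56) exceeded 99.9% and 99.7% of probes.

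**Figure D1:**
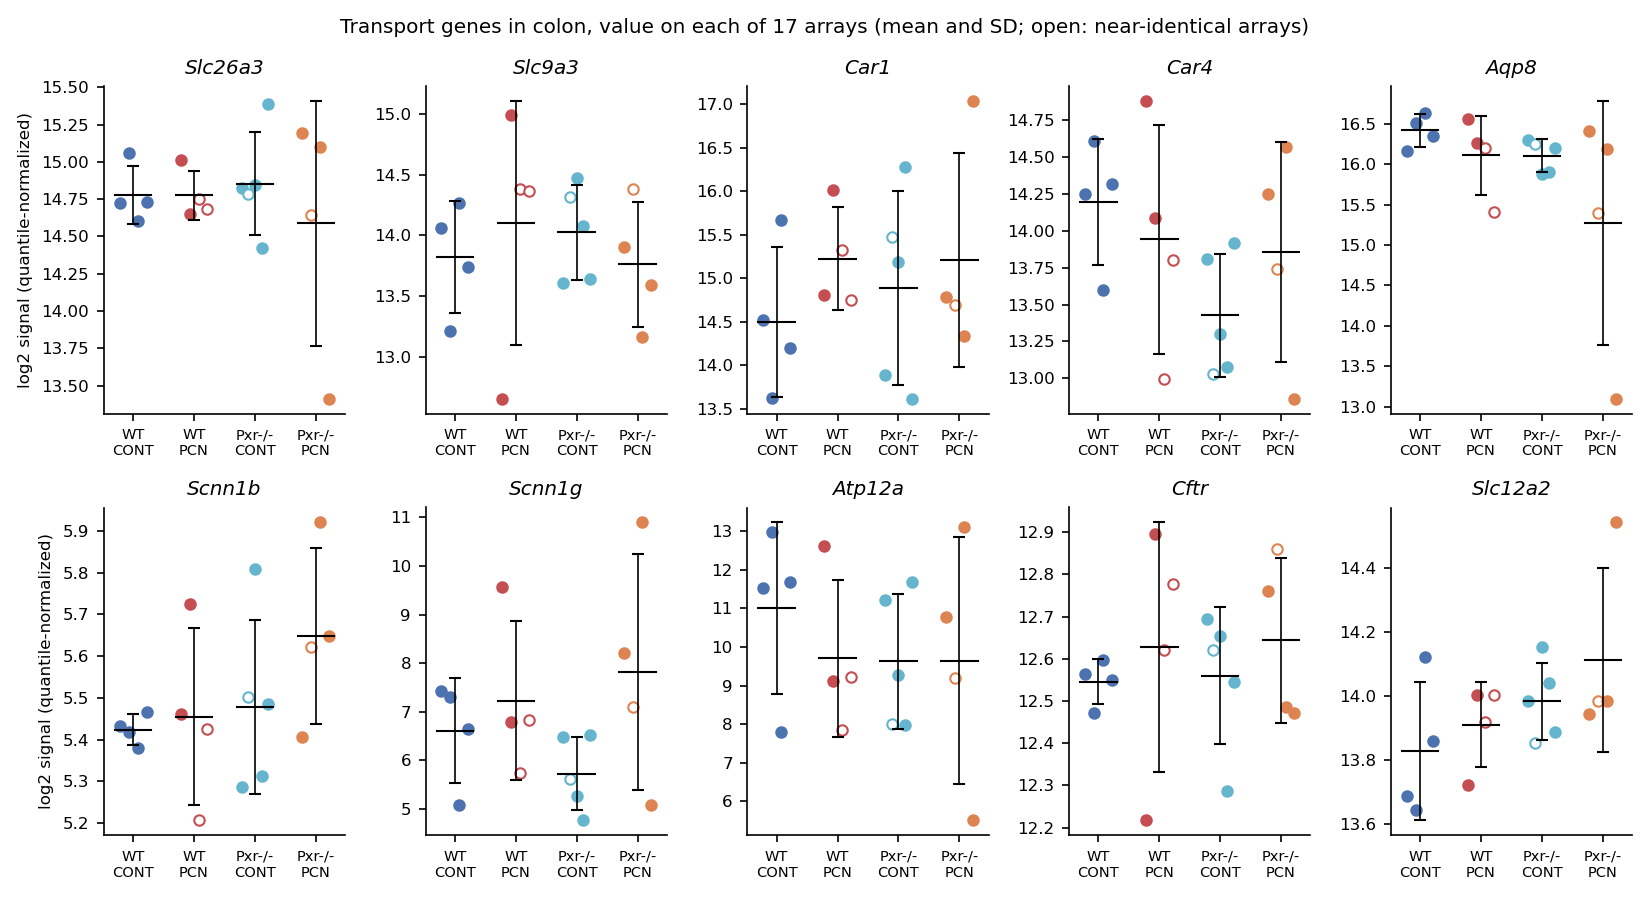
Log2 signal (y axis) of each transport gene on the 17 arrays by group (x axis), with the group mean (line) and SD (bar); open points are the 4 near-identical arrays. Groups overlap in every panel, and Pxr-/- PCN replicate 4 is the lowest point for Slc26a3 (13.41), Car4 (12.86), Aqp8 (13.10) and Atp12a (5.51) and the highest for Car1 (17.04) and Slc12a2 (14.54).

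Slc26a3, the apical chloride-bicarbonate exchanger, was at 14.72, 15.06, 14.60 and 14.73 on the WT CONT arrays, 15.01, 14.65, 14.75 and 14.68 under WT PCN, 14.83, 14.79, 14.84, 14.42 and 15.39 in Pxr-/- CONT, and 15.20, 14.65, 15.10 and 13.41 in Pxr-/- PCN. All groups overlapped, and the only value below 14.42 was that of Pxr-/- PCN replicate 4. Slc9a3, which encodes the sodium-proton exchanger NHE3, was at 14.06, 13.21, 14.27 and 13.74 in WT CONT, 12.65, 14.99, 14.38 and 14.37 in WT PCN, 13.61, 14.32, 14.47, 14.08 and 13.64 in Pxr-/- CONT, and 13.90, 14.38, 13.16 and 13.59 in Pxr-/- PCN. Its lowest and highest arrays were WT PCN replicates 1 and 2, of the same group, 5.06-fold apart. The other probes of these genes followed the same course over the 15 profiles, with r of 0.94 and 0.95 for both other Slc26a3 probes and 0.94 for the other Slc9a3 probe.

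Car1 and Car4 are carbonic anhydrases, the first in the cytosol and the second anchored to the apical membrane. Car4 was at 14.25, 14.61, 13.60 and 14.32 in WT CONT, 14.88, 14.08, 12.99 and 13.80 in WT PCN, 13.81, 13.03, 13.30, 13.08 and 13.92 in Pxr-/- CONT, and 14.25, 13.74, 14.57 and 12.86 in Pxr-/- PCN. Only 2 of the 5 Pxr-/- CONT arrays were above the lowest WT CONT array, and this was the group difference of Car4 nearest to the threshold. Car1 ran the other way along the arrays. It was at 14.52, 13.62, 15.67 and 14.20 in WT CONT, 14.81, 16.02, 15.33 and 14.75 in WT PCN, 13.89, 15.48, 15.19, 16.28 and 13.62 in Pxr-/- CONT, and 14.78, 14.69, 14.34 and 17.04 in Pxr-/- PCN, a range of 10.7-fold. A separate Car1 probe gave the same course (r = 0.998 over 15 profiles).

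Aqp8, a water channel of surface colonocytes, held to a narrow band on most arrays: 16.17, 16.51, 16.64 and 16.35 in WT CONT, 16.56, 16.26, 16.20 and 15.41 in WT PCN, 16.30, 16.25, 15.88, 15.90 and 16.20 in Pxr-/- CONT, and 16.40, 15.39, 16.19 and 13.10 in Pxr-/- PCN. Its range of 11.6-fold came from Pxr-/- PCN replicate 4, and the next lowest values, 15.39 and 15.41, were those of a near-identical pair.

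Scnn1b and Scnn1g encode the beta and gamma subunits of ENaC, and Scnn1a, measured with the other transport genes below, the alpha subunit. Scnn1g was at 7.42, 7.30, 5.08 and 6.63 in WT CONT, 9.57, 6.78, 5.75 and 6.82 in WT PCN, 6.47, 5.62, 5.27, 4.77 and 6.51 in Pxr-/- CONT, and 8.21, 7.09, 10.90 and 5.08 in Pxr-/- PCN. It was well above the background on 11 of 17 arrays (3 of 4 WT CONT, 3 of 4 WT PCN, 2 of 5 Pxr-/- CONT and 3 of 4 Pxr-/- PCN), so that part of each group mean rests on signals near the background. Its highest arrays were Pxr-/- PCN replicate 3 and WT PCN replicate 1. Scnn1b stayed between 5.21 and 5.92 and was well above the background on 6 of 17 arrays and on 0 of 5 in Pxr-/- CONT, so that it has only a bound there. The Pxr-/- PCN mean was 1.08-fold over that bound (measured means 5.65 and 5.48, adjusted p = 0.84 in limma). The bound takes on each array the higher of the gene's own signal and the lowest signal of a probe well above the background. Pxr-/- PCN replicate 1 (5.41) was itself not well above the background, so that 1.08-fold is not a lower limit. The SD of Scnn1b within groups was 0.19.

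Atp12a, the catalytic subunit of the colonic H+/K+-ATPase, varied most. It was at 11.53, 12.99, 7.81 and 11.68 in WT CONT, 12.61, 9.12, 7.86 and 9.22 in WT PCN, 11.23, 8.01, 9.27, 7.97 and 11.68 in Pxr-/- CONT, and 10.78, 9.19, 13.11 and 5.51 in Pxr-/- PCN. Both ends of this 193-fold range were Pxr-/- PCN arrays, replicates 3 and 4, and every group held an array at 11.68 or above and an array at 7.97 or below. The near-identical arrays differed by 0.02 and 0.15 in Atp12a.

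The secretory genes and Scnn1b varied less than the other members, with SDs within groups of 0.19 for Cftr, 0.20 for Slc12a2 and 0.19 for Scnn1b. Cftr, the apical chloride channel, lay between 12.22 and 12.90 and was lowest and highest on WT PCN replicates 1 and 2, the same arrays as for Slc9a3. Slc12a2, the basolateral Na-K-Cl cotransporter NKCC1, was lowest on WT CONT replicate 3 (13.64) and highest on Pxr-/- PCN replicate 4 (14.54). Its next highest value was 14.15, on Pxr-/- CONT replicate 3.

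The design asks whether PCN changes these genes, whether genotype does, and whether the response to PCN depends on the receptor. With all 17 arrays, 0 of 10 members were called in any of the 5 comparisons by limma, where a call needs an adjusted p no larger than 0.05 together with more than a 1.5-fold change. Of all 38703 probes, the calls made up 0% for PCN in WT mice, 0.00517% for PCN in Pxr-/- mice, 0% for genotype under CONT, 0% for genotype under PCN and 0% for the interaction. At an unadjusted p under 0.05 the count of members was also 0 in each comparison, against 4.66% of probes for PCN in WT mice, 7.35% in Pxr-/- mice, 12.7% for genotype under CONT, 3.28% for genotype under PCN and 5.38% for the interaction. No member had groups that did not overlap, which 2.64%, 2.8%, 5.39% and 1.48% of probes had in the first 4 comparisons. Without the 4 near-identical arrays the members called were again 0, also at an unadjusted p under 0.05, while 0.0491% of probes were called for PCN in WT mice, 0.0517% in Pxr-/- mice, 0% for genotype under CONT, 0.0207% for genotype under PCN and 0.00258% for the interaction.

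**Figure D2:**
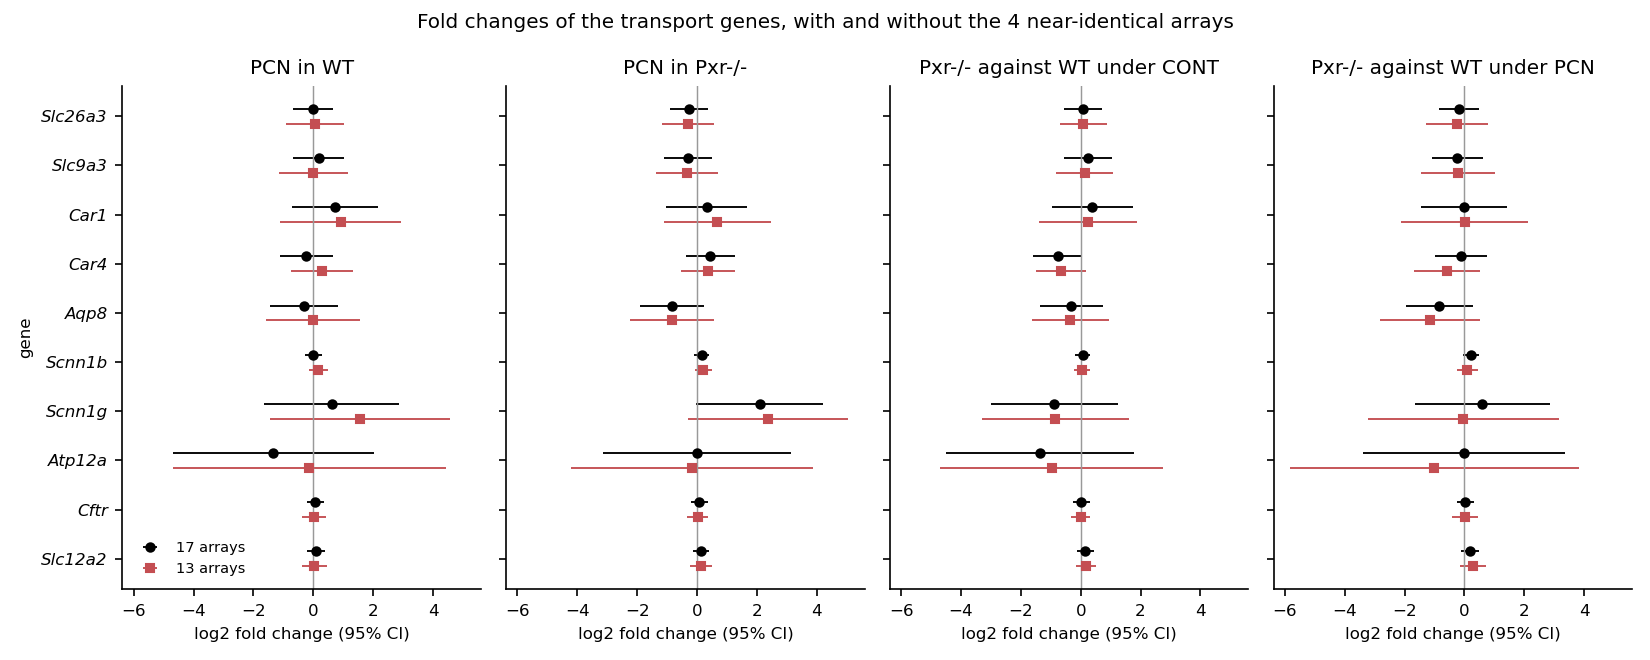
Log2 fold change (x axis) of each transport gene (y axis) in 4 comparisons, fitted by limma with 17 arrays (black circles) and 13 arrays (red squares); bars are 95% confidence intervals. Every interval includes 0, and those of Atp12a and Scnn1g are the widest.

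In WT mice the log2 fold changes with PCN ran from -1.34 (SE 1.57) for Atp12a to 0.73 (SE 0.67) for Car1, with no adjusted p below 0.96 in limma. In Pxr-/- mice they ran from -0.83 (SE 0.50, adjusted p = 0.77) for Aqp8 to 2.09 (SE 0.99, adjusted p = 0.69) for Scnn1g. For Scnn1g only 2 of the 5 Pxr-/- CONT arrays were well above the background, so that the size of this difference is uncertain. The Aqp8 value was -0.00 without Pxr-/- PCN replicate 4. The Scnn1g value was 1.03 without Pxr-/- PCN replicate 3 and 3.13 without replicate 4 (unadjusted p = 0.00424, adjusted p = 0.40), and within the wash baths the difference of means was 3.98 in bath 1 (2 against 2 arrays) and 0.44 in bath 2 (2 against 3).

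Between genotypes under CONT, Car4 was lower in Pxr-/- by -0.77 (95% interval -1.59 to 0.05, adjusted p = 0.42), which was -0.66 with 13 arrays, -1.24 in bath 1 and -0.37 in bath 2. The other members lay between -1.36 (Atp12a) and 0.38 (Car1), and under PCN between -0.84 (Aqp8) and 0.60 (Scnn1g). The interaction ran from -0.52 for Aqp8 to 1.47 for Scnn1g. For Atp12a the difference with PCN in Pxr-/- was 2.53 in bath 1 (2 against 2 arrays) and -2.16 in bath 2 (2 against 3). With PCN in WT it was -3.53 in bath 1 (3 against 2) and 2.87 in bath 2, where WT PCN is replicate 1 alone.

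The median log2 fold change of the 10 members was 0.04, 0.11, 0.04, -0.02 and 0.03 in the 5 comparisons, beside 0.00, 0.01, 0.01, 0.01 and 0.01 over all probes. The width of the intervals differed between genes. For Cftr the interval of the PCN effect was -0.23 to 0.36 in WT and -0.20 to 0.35 in Pxr-/-, and for Slc12a2 it was -0.21 to 0.39 and -0.15 to 0.41, all short of a 1.5-fold change. For Atp12a it was -4.70 to 2.03 and -3.15 to 3.15, so that large changes in either direction were not detectable with these arrays.

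The 45 other genes of colonic ion and water transport, listed by function, gave the same picture. All 45 were tested and 0 were called in any comparison with 17 or 13 arrays. At an unadjusted p under 0.05, 0 were higher and 1 lower with PCN in WT mice, 2 higher and 1 lower in Pxr-/- mice, 3 higher and 5 lower for genotype under CONT, 0 and 1 for genotype under PCN, and 2 and 0 for the interaction. Their median log2 fold changes were 0.01, 0.01, 0.00, 0.02 and 0.00. The 8 genes for genotype under CONT stand beside 12.7% of all probes, and they belong to electroneutral absorption (4 of 14 listed) and to the ENaC route (4 of 12 listed); differences between functions were not tested. Among them, Hsd11b2, the enzyme that keeps glucocorticoids off the mineralocorticoid receptor, averaged 10.16 ± 0.43 (SD, n = 4) on WT CONT arrays, 9.91 ± 0.57 (n = 4) on WT PCN arrays, 9.38 ± 0.27 (n = 5) on Pxr-/- CONT arrays and 10.19 ± 0.45 (n = 4) on Pxr-/- PCN arrays, with a genotype difference under CONT of -0.78 (SE 0.28, adjusted p = 0.30 in limma) and a PCN difference in Pxr-/- of 0.81 (SE 0.28, adjusted p = 0.54). Car2, the other main cytosolic anhydrase, was -0.45 (SE 0.17, adjusted p = 0.33) in Pxr-/- CONT against WT CONT.

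Most of the 10 genes varied along with genes of the distal colon. The list of distal colon genes held 5 homeobox genes, of which Hoxb13, Hoxd10, Hoxd12 and Hoxd13 were measured, and the mean of these 4 ran from 7.93 to 10.38 in WT CONT, 7.93 to 11.13 in WT PCN, 7.48 to 9.73 in Pxr-/- CONT and 6.58 to 11.19 in Pxr-/- PCN. Every group thus held arrays low and high on this list. The highest were Pxr-/- PCN replicate 3 and WT PCN replicate 1, also the highest for Scnn1g, and the lowest was Pxr-/- PCN replicate 4, the lowest for Atp12a.

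Over the 15 profiles, 8 of the 10 members correlated with the list mean at an adjusted p of r of at most 0.05 (two-sided permutation tests, 10 relations), 5 of them positively and 3 negatively. An absolute r of at least 0.6 was reached by 7 of 10 members and 25 of the 45 other transport genes, beside 17.5% of all probes tested. Atp12a followed the list most closely (r = 0.97, rho = 0.97, both with an adjusted p of 0.0001, the smallest these permutations can give), with r of 0.95 without the 2 profiles farthest from the median of the list, 0.96 within bath 1 and 0.98 within bath 2 (7 profiles each). Car4 (r = 0.88, rho = 0.91, adjusted p = 0.00015 for both) and Scnn1g (r = 0.83, adjusted p = 0.0003, and rho = 0.78, adjusted p = 0.00214) followed it as well.

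Slc26a3 also rose with the list (r = 0.76, adjusted p = 0.00074, and rho = 0.80, adjusted p = 0.00214). Car1 fell with it (r = -0.80, adjusted p = 0.00074, and rho = -0.78, adjusted p = 0.00214), as did Slc9a3 (r = -0.68, adjusted p = 0.00693, and rho = -0.62, adjusted p = 0.021) and Slc12a2 (r = -0.69, adjusted p = 0.006, and rho = -0.66, adjusted p = 0.0145). The paired exchangers Slc9a3 and Slc26a3 thus ran in opposite directions along the list. Their direct relation did not pass (r = -0.20, adjusted p = 0.664, and rho = -0.42, adjusted p = 0.219, permutation tests). Against the list, Atp12a and the 6 genes named next kept their sign within each bath. Their r without the 2 farthest profiles was 0.84 (Car4), 0.77 (Scnn1g), 0.68 (Slc26a3), -0.76 (Car1), -0.86 (Slc9a3) and -0.69 (Slc12a2).

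The relation of Aqp8 (r = 0.58, adjusted p = 0.0117) rested on Pxr-/- PCN replicate 4: by rank it did not pass (rho = 0.45, adjusted p = 0.121), and r was 0.37 without that array. Slc12a2 was at -0.55 without it, with an adjusted p of 0.061. Scnn1b (r = 0.13, adjusted p = 0.644) and Cftr (r = -0.27, adjusted p = 0.368) showed no relation that passed. Some profiles high in pancreas or liver markers were left out in a setting chosen after these values had been seen. They were WT CONT replicates 4 and 5, WT PCN replicate 1, and the pair of WT PCN 3 and Pxr-/- CONT 2. WT PCN replicate 2, with a liver mean of 9.34, was kept. Over the 11 profiles left, 7 of 10 members passed, and Slc9a3 did not (r = -0.54). Other markers also differed along the list. The colonocyte mean was 15.35, 15.36 and 15.47 on the 3 arrays highest on it and 15.80, 16.16 and 16.01 on the 3 lowest, and the immune mean was 10.61, 10.95 and 10.77 against 10.08, 10.03 and 10.37. Their part in these relations was not tested, nor was that of the stretch of colon sampled, which the labels do not give.

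**Figure D3:**
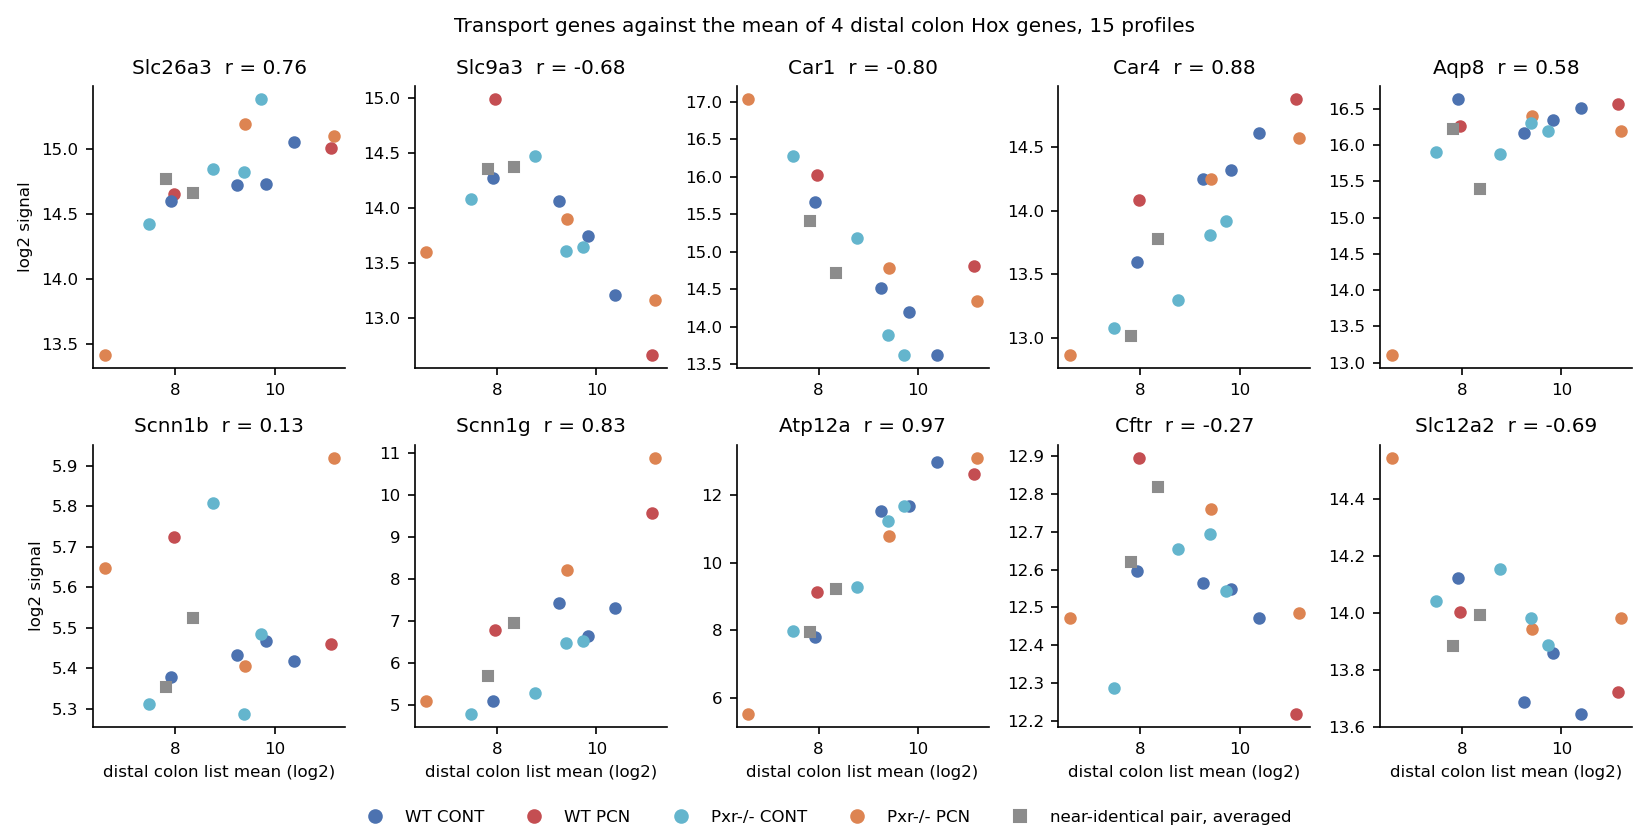
Log2 signal of each transport gene (y axes) against the mean log2 signal of 4 distal colon homeobox genes (x axes) over 15 profiles, coloured by group, with the 2 near-identical pairs averaged (grey squares). Atp12a, Car4, Scnn1g and Slc26a3 rise with the list and Car1, Slc9a3 and Slc12a2 fall, with points of all groups along each course.

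Of the other transport genes, 26 of 45 correlated with the list at an adjusted p of r of at most 0.05 (45 relations), 14 positively and 12 negatively, and 24 of them also by rank. Fxyd4, a regulator of the sodium pump in the colon, showed the widest range: it was at 4.82 in Pxr-/- CONT replicate 4 and 15.63 in Pxr-/- PCN replicate 3, well above the background on 12 arrays, with r = 0.93 and rho = 0.93 (adjusted p = 5.62e-05 and 5e-05). The median range over the 45 genes was 1.09. Best2, a bicarbonate channel of colonic goblet cells (r = 0.92), Slc16a1, a carrier of short-chain fatty acids (r = 0.85), Atp1b1, a sodium pump subunit (r = 0.84), and Scnn1a, the ENaC alpha subunit (r = 0.80), rose with the list. Guca2a and Guca2b, which encode the peptides guanylin and uroguanylin that stimulate chloride secretion (r = -0.90 and -0.93), fell with it. Car2 (r = 0.76, adjusted p = 0.00315) and Hsd11b2 (r = 0.59, adjusted p = 0.0362, permutation tests) rose with the list, Hsd11b2 not by rank (adjusted p = 0.0634). The part of this in their group differences given above was not tested.

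Among themselves, 17 of the 45 pairs of members correlated at an adjusted p of r of at most 0.05 over the 15 profiles, 10 positively and 7 negatively, and 10 of them also by rank. The count was 9 without Pxr-/- PCN replicate 4, 6 without the 2 farthest profiles of each pair, 3 within bath 2 and 0 within bath 1, where 7 profiles remain. Among the pairs that passed both by r and by rank, the closest positive ones were Car4 with Atp12a (r = 0.90, rho = 0.88, adjusted p = 0.0009 and 0.0018) and Car4 with Scnn1g (r = 0.83, rho = 0.86, adjusted p = 0.00135 and 0.00202). The closest negative pair among them was Car1 with Atp12a (r = -0.87, rho = -0.80, adjusted p = 0.0009 and 0.00915), with r of -0.77 without the 2 farthest profiles and -0.87 and -0.89 within the baths. Both carbonic anhydrases opposed each other (r = -0.66, adjusted p = 0.0226), which did not pass by rank (rho = -0.60, adjusted p = 0.0636).

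Slc26a3 with Aqp8 (r = 0.83, adjusted p = 0.0244) rested on Pxr-/- PCN replicate 4, with r of 0.30 without it and rho = 0.33 (adjusted p = 0.386). Cftr was related to Slc9a3 alone among the members (r = 0.71, rho = 0.70, adjusted p = 0.0136 and 0.0228), which was 0.39 without WT PCN replicates 1 and 2. Scnn1b was related to no member at that threshold, including its partner subunit Scnn1g (r = 0.34, adjusted p = 0.349).

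**Figure D4:**
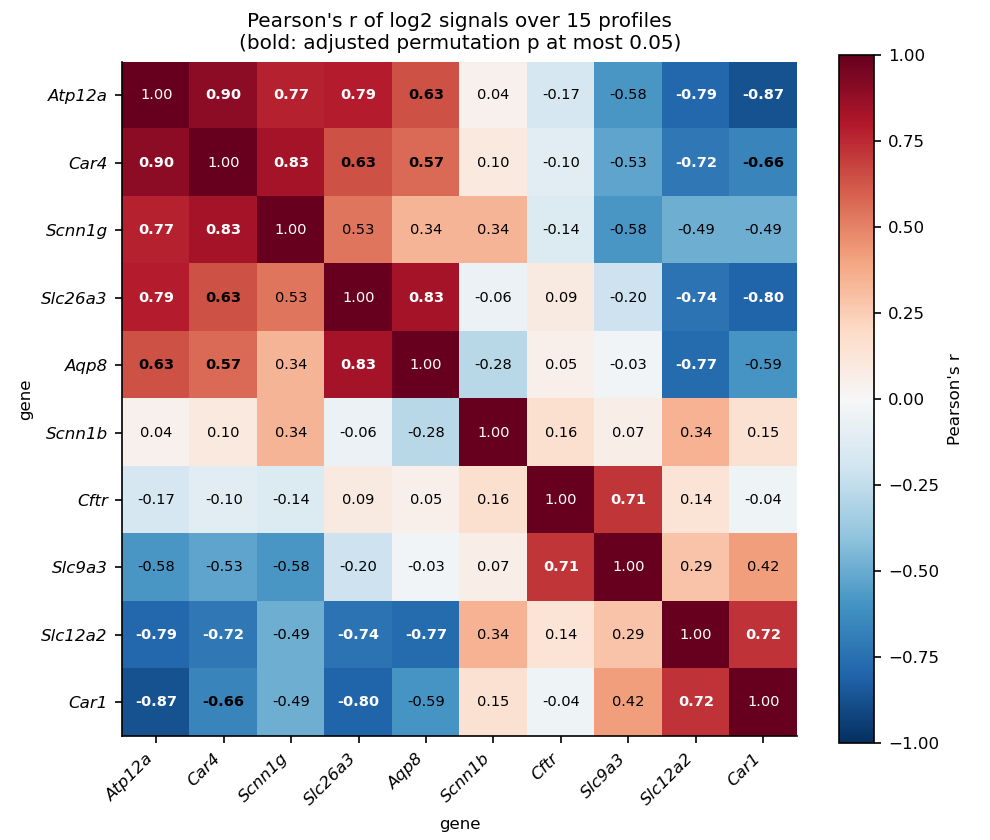
Pearson's r between the log2 signals of each pair of transport genes over 15 profiles (both axes list the genes; colour and number give r; bold marks an adjusted permutation p of at most 0.05). Atp12a is positive and bold with Car4 (0.90), Slc26a3 (0.79), Scnn1g (0.77) and Aqp8 (0.63) and negative and bold with Car1 (-0.87) and Slc12a2 (-0.79), Scnn1g is bold only with Atp12a and Car4, and Scnn1b is bold with no gene.

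The 5 genes most like the mean of the members, each centred per gene, were an unnamed transcript (ENSMUST00000121989, r = 0.96), Ppa1 (0.96), Gsta3 (0.95), Ly6g6e (0.94) and Ap1s3 (0.94), out of 23754 names compared over 15 profiles. Without Pxr-/- PCN replicate 4 they stood at 0.94, 0.94, 0.95, 0.91 and 0.90. The members were not scaled before averaging. Atp12a and Scnn1g (SD over the 17 arrays 2.17 and 1.63) thus weigh far more in this mean than Cftr (0.18). The mean also joins members that rise with the distal colon list and members that fall with it.

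With the list mean of each array as a further term in the fit, a setting added after these correlations had been seen, the residual SD fell from 2.42 to 0.56 for Atp12a, from 1.62 to 0.56 for Scnn1g, from 1.03 to 0.63 for Car1, from 0.62 to 0.26 for Car4 and from 0.47 to 0.30 for Slc26a3, beside 0.17 to 0.15 for the median of all probes. It stayed at 0.20 for Cftr. No member was called in this fit either. Scnn1g had the smallest unadjusted p, with a log2 fold change with PCN of 1.79 in Pxr-/- (SE 0.34, adjusted p = 0.13 in limma) and 1.11 in WT (SE 0.37, adjusted p = 0.81), and the difference between both genotypes did not pass (0.68, SE 0.50, adjusted p = 0.81). The genotype difference of Car4 under CONT was -0.48 (SE 0.16, adjusted p = 0.28), and that of Atp12a was -0.15 in place of -1.36.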

How the data were processed

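The authors hybridized Cy3-labelled RNA (150 ng of total RNA per sample) to 1-colour Agilent arrays read with Feature Extraction 10.10.1.1, and deposited the intensity of each spot (median and mean signal, background and processed signal) with flags, without normalization between arrays. The authors also deposited log2 values for 36695 probes, used to choose 1 probe per gene and as an alternative. Of 59305 spots outliers were left out, log2 median intensities were quantile-normalized (in place of the CrossNorm of the methods), and spots averaged to 56605 probes. The fit took 38703 probes, those whose spots 4 or more arrays marked as well above background. Between 62.7% and 71.0% of spots were well above the background, none was saturated, and the number of arrays limits the precision. Names came from RefSeq accessions (32994 probes, 1535 renamed) or the file.

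limma 3.58.1 (R 4.3.3) fitted the 4 groups and the wash bath to 17 arrays, with Benjamini-Hochberg adjustment over all probes. P-values measure the spread between these samples. Correlations used permutation tests with 100000 resamples, exact where under 9 profiles (scipy 1.17.1, numpy 2.4.6). The script was tested on simulated data with independent noise and a capped spread of each probe. That test does not cover genes with a spread as wide as that of Atp12a or Scnn1g. The members and gene lists were chosen with earlier results of these data known; the genes named are all members, a fixed choice of transport genes, the 5 genes most like the members, and markers that move with a result, while Fxyd4 and the other transport genes named beside it were picked out after their values were seen. Liver arrays were not used here.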

Additional observations from a re-analysis of the deposited data

Results flagged for a closer look

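In 44 groups (10 genes and the distal colon list in 4 groups), 3 single arrays lay farther from the rest of their group than Dixon's criterion allows at 95%, which chance meets in about 1 group in 20. Car1 was at 17.04 in Pxr-/- PCN replicate 4, against 14.34 to 14.78 in the other Pxr-/- PCN arrays, and Slc12a2 was at 14.54 in the same array, against 13.94 to 13.98. The mean of the distal colon genes was 11.13 in WT PCN replicate 1, against 7.93 to 8.34 in the other WT PCN arrays, of which replicates 3 and 4 are near-identical to Pxr-/- arrays. The causes were not tested.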

How the results depend on the processing

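No member was called under any of 18 alternatives (880 fold changes, 38 with a changed sign) or with 1 of 17 arrays left out in turn (850, 72 with a changed sign). Part of the 880 could not change sign. Other limits for a call, other filters on dim probes and a robust setting of limma leave the fold changes as reported. The filter for probes well above background on all arrays also left out Scnn1b and Scnn1g. The smallest adjusted p of a member was 0.0701 (Car4, genotype under CONT, limma with array weights). Array weights called 1 other transport gene for genotype under CONT. The causes of the changes below were not tested.

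For PCN in WT mice, Slc26a3 changed sign to 0.024 with the scanner's processed signal, 0.0076 with normexp, 0.054 without the 4 near-identical arrays or without the WT-labelled array of each pair, 0.00011 with the mean of all probes, 0.0057 with array weights and 0.11 with the distal list as a term. Car4 did so to 0.29 without those 4 or 2 arrays, and Scnn1b to -0.011 with the authors' values and -0.018 with array weights. For PCN in Pxr-/- mice, Atp12a turned to -0.24 with the processed signal, -0.027 with only those groups, -0.17 without 4 arrays, -0.029 without 2 and -0.46 with the distal list. For genotype under CONT, Cftr turned to -0.00065 without 4 arrays and -0.0094 with the distal list, and Car1 to -0.045 with the latter. For genotype under PCN, Car1 turned to 0.0097 (processed signal), 0.00049 (slide as a block) and 0.0092 (without 4 arrays), Atp12a to 0.079 (normexp) and 0.090 (array weights), Cftr to -0.010 (normexp), and Scnn1g to -0.035 and -0.35 (without 4 and 2 arrays). The interaction turned for Cftr to -0.065 (processed signal), -0.040 (normexp) and -0.059 (mean of probes), for Slc12a2 to -0.0060 (processed signal) and -0.14 (array weights), for Atp12a to -0.033 (without 4), for Scnn1b to -0.014 (without 2) and for Car1 to 0.029 (distal list).

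With the replicate number as a block, 0 members were called, Car4 and Atp12a turned to 0.056 and 0.53 for genotype under PCN, and Slc12a2 to -0.024 in the interaction. The numbers did not pair the samples (22 pairs, r from -0.33 to 0.49, 11 over 0.1).

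With 1 array left out, PCN in WT ranged from -0.66 to 0.066 for Car4, -0.013 to 0.25 for Cftr, -0.073 to 0.092 for Scnn1b, -0.54 to 1.09 for Scnn1g, -0.14 to 0.097 for Slc26a3 and -0.15 to 0.74 for Slc9a3. PCN in Pxr-/- ranged from -1.17 to 1.56 for Atp12a, -0.36 to 0.76 for Car1, -0.016 to 0.14 for Cftr, -0.023 to 0.21 for Slc12a2 and -0.51 to 0.18 for Slc26a3. Genotype under CONT ranged from -0.043 to 0.82 for Car1, -0.019 to 0.11 for Cftr, -0.017 to 0.13 for Scnn1b, -0.059 to 0.21 for Slc26a3 and -0.035 to 0.50 for Slc9a3. Genotype under PCN ranged from -1.40 to 1.46 for Atp12a, -0.60 to 0.33 for Car1, -0.42 to 0.32 for Car4, -0.15 to 0.11 for Cftr, -0.66 to 1.75 for Scnn1g, -0.38 to 0.19 for Slc26a3 and -0.80 to 0.090 for Slc9a3. The interaction ranged from -0.91 to 0.21 for Aqp8, -0.16 to 0.094 for Cftr, -0.097 to 0.11 for Slc12a2 and -0.47 to 0.13 for Slc26a3.

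Over all probes, calls for PCN in WT and in Pxr-/- were 0 and 2 with 17 arrays, 19 and 20 with 13, 39 and 29 without the WT-labelled array of each pair, and up to 18 and 26 with 1 array left out. Array weights gave 521 for genotype under CONT.

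Of the correlations with the distal list, without the 2 farthest profiles Aqp8 was 0.44 and Scnn1b -0.047. Within bath 1, 5 members passed, and Car4 was 0.80, Aqp8 0.51 and Slc12a2 -0.45. Within bath 2, 4 passed, and Slc26a3 was 0.81, Slc9a3 -0.57, Car1 -0.78, Aqp8 0.75 and Scnn1b -0.43. Without Pxr-/- PCN replicate 4, Aqp8 was 0.37 and Slc12a2 -0.55. Without the profiles high in pancreas or liver markers named above, a setting that kept WT PCN replicate 2, Slc9a3 was -0.54. Over the 6 WT arrays of the 13, 4 passed, and Slc26a3 was 0.89, Car1 -0.75, Aqp8 0.21, Scnn1b -0.37, Scnn1g 0.81, Slc12a2 -0.82 and Cftr -0.86, which passed only there. Over the 7 Pxr-/- arrays Slc9a3 was -0.43, Cftr 0.39 and Slc12a2 -0.75. Pairs of members past the threshold, 17 in all profiles, numbered 6 without the 2 farthest profiles, 0 in bath 1, 3 in bath 2 and 9 without Pxr-/- PCN replicate 4. The subsets without Pxr-/- PCN replicate 4, without profiles high in those markers and by genotype were chosen after seeing the data.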
